A study of Mus musculus with 4 samples.

Results

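Immediate early genes were read on 4 Affymetrix MG_U74Av2 arrays, 3 from mouse extraembryonic endoderm (XEN) cells and 1 from embryonic stem (ES) cells. The members were Egr1, Fos, Fosb, Jun, Junb, Dusp1, Ier2, Ier3, Ccn1 and Ccn2, taken by name, with every probe set annotated to exactly 1 of these symbols. This gave 13 probe sets for 10 genes, out of 12488 probe sets on the array. Egr1, Fos and Junb had a pair of probe sets each.

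The XEN cultures were XEN1-3, from the ICR strain at passage 18, and IM8A1-II and IM8A1-I, both from the PO strain line IM8A1 at passage 27. XEN1-3 and IM8A1-I grew on gelatin in the medium labelled 70% EMFI-CM. IM8A1-II had spent 4 days in RPMI 1640 with 20% FBS on plastic, so its surface, medium and time in culture differ together from those of IM8A1-I and cannot be told apart. The ES group was a single culture of undifferentiated R1 cells on gelatin with LIF. Each culture gave 1 array, and the XEN cultures represent 2 lines. No label says whether the IM8A1 cultures were grown independently, so p-values measure the spread between these cultures, with the lone ES array assumed to vary as they do.

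Immediate early genes are transcribed rapidly when cells meet serum, growth factors, adhesion signals or stress, without the need for new protein synthesis, and their mRNAs are short-lived. Serum response factor with its ETS partners, CREB, and for the CCN genes also YAP with TEAD factors, are known activators. The products include transcription factors (Egr1 and the AP-1 subunits Fos, Fosb, Jun and Junb), the phosphatase Dusp1 that inactivates MAP kinases, the response proteins Ier2 and Ier3, and the secreted matrix-associated proteins Ccn1 (Cyr61) and Ccn2 (Ctgf). Their level in a culture is known to follow what the cells last met before harvest, and the labels give no time since feeding.

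Promoter sequence was at hand for 7 of the 10 genes (RefSeq, GRCm38.p6), in windows from 250 bases before the annotated gene start to 50 after it. The stretches below end at the base before the start and run 5′ to 3′ on the gene's strand. They are shown for Ccn1, which stood higher in every XEN culture than in ES, for Dusp1, which stood lower in every XEN culture, and for the AP-1 gene Fos. Capitals mark the CRE core TGACG on either strand, the full CRE TGACGTCA (which contains the core), the TEAD site GGAATG on either strand and the TATA box TATAAA.
Ccn1, chr3:145649986-145650135, minus strand: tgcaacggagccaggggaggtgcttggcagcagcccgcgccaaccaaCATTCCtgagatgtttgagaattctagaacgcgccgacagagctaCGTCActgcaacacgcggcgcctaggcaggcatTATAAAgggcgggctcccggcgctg
Dusp1, chr17:26508473-26508622, minus strand: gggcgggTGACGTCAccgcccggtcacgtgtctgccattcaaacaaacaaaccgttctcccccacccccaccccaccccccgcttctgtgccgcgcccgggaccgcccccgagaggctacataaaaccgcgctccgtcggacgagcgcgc
Fos, chr12:85473740-85473889, plus strand: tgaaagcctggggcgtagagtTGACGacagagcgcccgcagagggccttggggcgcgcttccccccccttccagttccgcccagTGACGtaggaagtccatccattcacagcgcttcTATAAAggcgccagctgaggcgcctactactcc

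A CRE core lay in 5 of the 7 windows (Fos, Fosb, Junb, Dusp1 and Ccn1), against 20.8% of all 32851 promoter windows of the same length. The full CRE was found in the Dusp1 window, 143 bases before the start, against 1.79% of all windows. The letters of the TEAD site were found in the Ccn1 window, 103 bases before the start, against 14.7%. TATAAA lay in the windows of Fos, Junb and Ccn1, against 13.6%. It began 33 bases before the start in Fos and 25 before it in Ccn1, but at the annotated start itself in Junb. The AP-1 letters TGANTCA (7.81% of all windows) and a CArG box (1.63%), the sequence bound by serum response factor, were in none of the 7 windows, which says only that these letters are not in these 300 bases. A match of letters is a description and not a binding site.

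Signal is given in arbitrary units on a linear scale. A level of 27.2 units, the 40th percentile of all values, served as the background limit; it is not a detection call. Of the 13 member probe sets, 11 reached it on at least 1 array and were tested with the other probe sets, 8587 in all, and the other 2 lay under it on every array. Levels are compared between arrays and not between probe sets. As checks on the labels, the summed signal of 7 ES cell markers was 190.1 to 224 units in the XEN cultures, against 20049.9 units in ES, and that of 7 XEN markers was 9366 to 10735 units in the XEN cultures, against 151 units in ES. Fibroblast and feeder cell markers summed to 613 to 857 units over 12 genes in the XEN cultures, against 1089 units in ES, and on each array 7 or 8 of the 12 were under the background limit. Tagln made up 36.1 to 213.5 units of these sums in XEN and 538 in ES, and without it they were 577 to 701 units in XEN, against 551 in ES. Postn, Col3a1, Dcn and Prrx1 were under the limit on every array, while Col1a2 read 352 to 403 units in XEN, against 206 in ES. Others lay lower in XEN. Col1a1 read 68.0 to 95.5 units in XEN, against 153 in ES. Thy1 read 3.00 to 5.80 units, against 48.5 in ES, and Prrx2 7.20 to 18.8 units, against 52.9 in ES. Twist1 lay on both sides of ES, with 5.80 to 156 units in XEN, against 11.8 in ES. Lum and Pdgfrb were dim, at most 33.0 units on any array. The ES array came from a different chip lot and scan day than the XEN arrays, so neither lot nor day can be told apart from cell type. The run record of XEN1-3 carries a message that fluid was not detected and holds no wash settings. Its 3′ to 5′ signal ratio was 1.22 for actin and 1.08 for Gapdh, against 1.21 to 1.25 and 0.954 to 1.02 on the other arrays. Member results whose call or sign changes when it is left out are given without it as well. Fits without XEN1-3 cover the line IM8A1 alone. Their p-values measure only the spread between its cultures and do not speak for XEN lines in general.

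**Figure D1:**
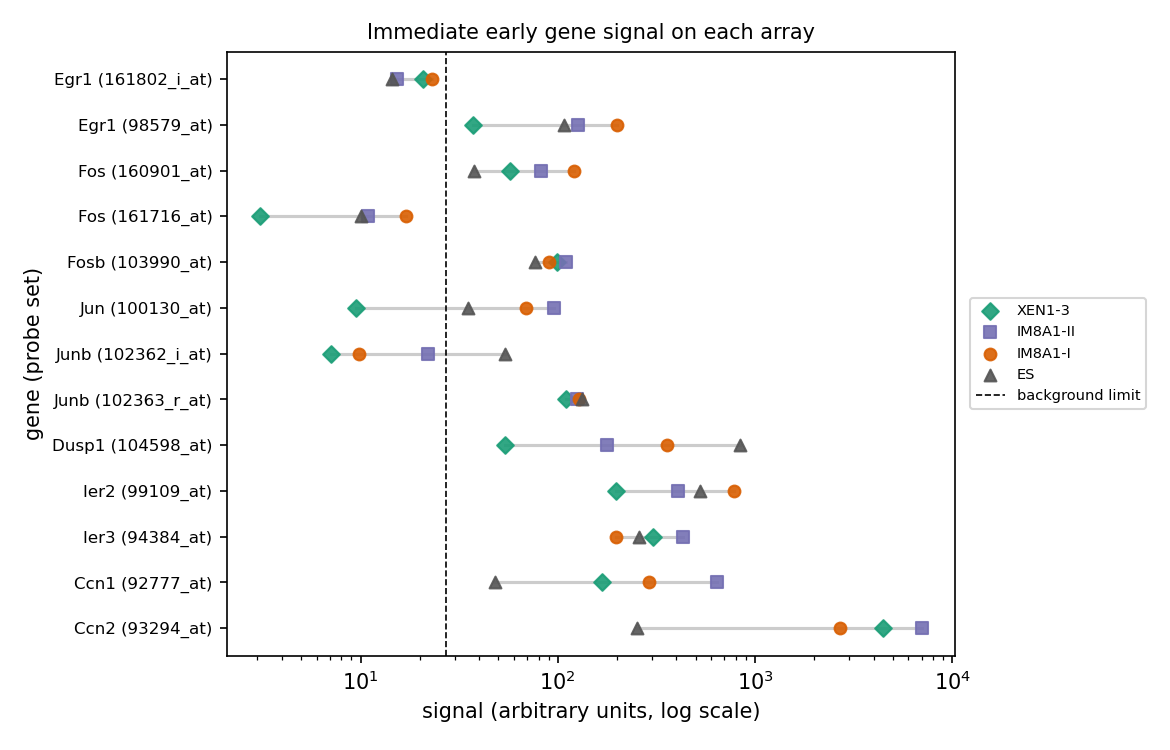
Signal of all 13 member probe sets (rows) on each array, in arbitrary units on a log axis. Symbols mark the 4 arrays, grey lines join the lowest and highest array, and the dashed line is the background limit of 27.2 units. ES is the lowest array for Ccn2 and Ccn1 and the highest for Dusp1, and XEN1-3 is the lowest for Egr1 (98579_at), Jun and Ier2.

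XEN cells were compared with ES cells to see which transcripts separate the extraembryonic endoderm from the pluripotent state. Ccn2, Ccn1 and Dusp1 lay more than 2-fold from ES in all 3 XEN cultures. The share of all tested probe sets that did so was not counted, so this does not set the members apart. In IM8A1-I, 1219 of 8587 tested probe sets lay past 2-fold higher than ES and 1215 lower. These counts were 1226 and 1153 in IM8A1-II, and 1193 and 1120 in XEN1-3. Of the 11 tested member probe sets, 3 were higher and 2 lower in IM8A1-I, 3 and 1 in IM8A1-II, and 2 and 5 in XEN1-3. Ccn2 was 18.9-fold and Ccn1 7.60-fold higher in mean XEN signal than in ES, and Dusp1 was at least 2.34-fold lower in each XEN culture. Of the 11 tested probe sets 1 rose (Ccn2) and 0 fell at a limma adjusted p under 0.05, when 5.58% of all tested probe sets rose and 5.04% fell. At an unadjusted p under 0.05, 4 of the 11 differed (Ccn2, Ccn1, Dusp1 and 1 Junb probe set), when 29.6% of all tested probe sets did so. In a further 4 tested probe sets (Egr1, Jun, Ier2 and Ier3) the XEN cultures lay on both sides of ES. The bulk signal cannot tell fewer cells of a type from less RNA per cell.

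Ccn2, on chromosome 10, encodes connective tissue growth factor, a secreted regulator of matrix production. It stood at 4464.5, 7059 and 2707 units in XEN1-3, IM8A1-II and IM8A1-I, against 251 units in ES. Every XEN culture was at least 10.8-fold above ES, with a mean of 4743.5 ± 2189.6 units (SD, n = 3), and the groups did not overlap. The difference was 4.08 ± 0.53 on the log2 scale (SE, 95% interval 2.78 to 5.37, limma adjusted p = 0.0122). The call held in 11 of 12 alternative settings and was lost with values raised to the background limit, where the difference was 4.13 and the adjusted p 0.0720 (adjusted p of 0.00499 to 0.0720 over the alternatives).

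Ccn1, on chromosome 3, encodes a related matricellular protein that binds integrins. Its levels were 168, 645 and 289 units in XEN1-3, IM8A1-II and IM8A1-I, against 48.3 units in ES. All 3 XEN cultures, with a mean of 367 ± 248 units (SD, n = 3), were above ES, XEN1-3 by 3.47-fold and IM8A1-II by 13.3-fold. The difference was 2.48 ± 0.69 in log2, which missed the threshold (adjusted p = 0.0779). Without XEN1-3 it was 2.91 with an adjusted p of 0.00934, and over the 12 alternatives the adjusted p ran from 0.00934 to 0.199.

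Dusp1, on chromosome 17, encodes a dual-specificity phosphatase that switches off JNK, p38 and ERK. Its highest array was ES, with 54.0, 178 and 359.7 units in XEN1-3, IM8A1-II and IM8A1-I, against 843 units in ES. The XEN cultures averaged 197 ± 154 units (SD, n = 3) and did not overlap with ES but spread widely among themselves, from 2.34-fold to 15.6-fold lower. In log2 this was -2.37 ± 0.90, short of the threshold (adjusted p = 0.149). Without XEN1-3 it was -1.69 and passed (adjusted p = 0.0396, against a range of 0.0396 to 0.335 over the alternatives). Leaving out that array brings the members called to 2 higher (Ccn2 and Ccn1) and 1 lower (Dusp1) of 11, when 9.47% of all tested probe sets rose and 8.62% fell in the same fit.

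None of the AP-1 subunits passed the test. Fos, on chromosome 12, the partner of Jun in the classical AP-1 dimer, stood at 57.0, 82.3 and 120.3 units in XEN1-3, IM8A1-II and IM8A1-I, against 37.6 units in ES. All 3 XEN cultures lay above ES, by 0.96 ± 0.42 in log2 on average, short of the threshold (adjusted p = 0.196). The second Fos probe set (161716_at) lay under the background limit on every array, between 3.10 and 17.1 units. Fosb, on chromosome 7, another Fos family subunit, was close to level at 99.5, 110.3 and 90.8 units in XEN1-3, IM8A1-II and IM8A1-I, against 76.9 units in ES (log2 difference 0.34 ± 0.28, 95% interval -0.35 to 1.02, adjusted p = 0.459).

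Jun, on chromosome 4, lay above ES in both IM8A1 cultures and below it in XEN1-3. It stood at 9.50 units in XEN1-3, under the limit, and at 96.0 and 69.3 units in IM8A1-II and IM8A1-I, against 34.9 units in ES. Over all XEN cultures the difference was 0.29 ± 0.93 in log2 (adjusted p = 0.868), with an interval from -2.00 to 2.58 that leaves room for changes of either sign. Junb, on chromosome 8, a Jun family subunit, gave unlike readings from its 2 probe sets. The brighter one (102363_r_at) read 109.6, 126 and 128 units in XEN1-3, IM8A1-II and IM8A1-I, against 132 units in ES, a log2 difference of -0.12 ± 0.27 (adjusted p = 0.810). The dimmer one (102362_i_at) read 7.10, 22.0 and 9.80 units in the same XEN cultures, all under the limit, against 54.1 units in ES. It was at least 1.99-fold lower in XEN, with a limma adjusted p of 0.0998 (0.00253 to 0.205 over the alternatives). The lowest came with values raised to the limit, which makes all XEN values equal, so that p does not measure their spread.

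Egr1, on chromosome 18, is a zinc finger factor induced through serum response elements. Its main probe set (98579_at) stood at 37.0, 127 and 199 units in XEN1-3, IM8A1-II and IM8A1-I, against 107 units in ES. Both IM8A1 cultures lay above ES and XEN1-3 below it, and the mean difference was -0.09 ± 0.79 in log2 (adjusted p = 0.959). Its sign turned without XEN1-3, where the difference was 0.53. The other probe set (161802_i_at) stayed under the limit on every array, between 14.4 and 23.1 units.

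Ier2, on chromosome 8, a nuclear response protein, followed the same order among the XEN cultures, with 197, 406 and 787 units in XEN1-3, IM8A1-II and IM8A1-I, against 525 units in ES. ES lay within the XEN range, and the log2 difference was -0.39 ± 0.71 (adjusted p = 0.755), or 0.11 without XEN1-3. Ier3, on chromosome 17, known as a stress response and survival factor, stood at 305, 432.5 and 198 units in XEN1-3, IM8A1-II and IM8A1-I, against 257 units in ES. Here too ES lay within the XEN range (log2 difference 0.20 ± 0.45, adjusted p = 0.804), and the sign turned without IM8A1-II, where the difference was -0.063.

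All 3 XEN arrays lay above ES for 4 of the 11 tested probe sets (Fos, Fosb, Ccn1 and Ccn2), when 38.9% of all tested probe sets did so. They lay below ES for 3 (Dusp1 and both Junb probe sets), when 34.0% did. Both shares are near those of the array as a whole. The median log2 difference over the 11 was 0.20, against 0.05 over all tested probe sets, and it was -0.080 with each XEN line counted once.

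**Figure D2:**
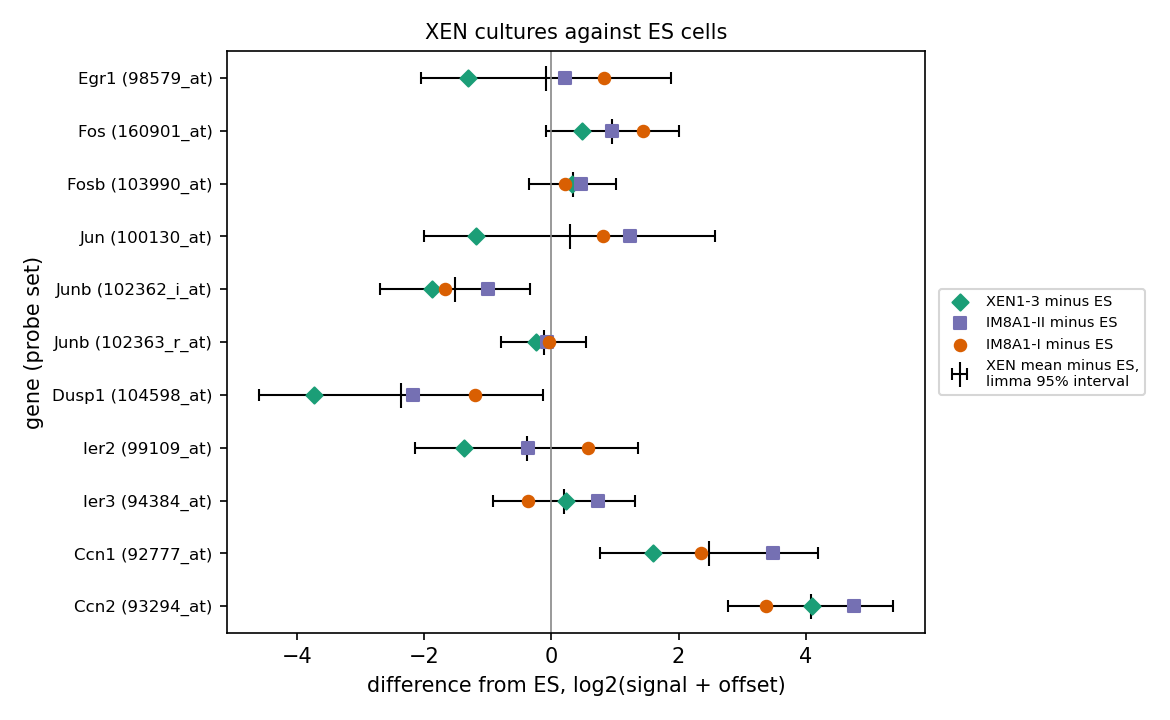
Difference of each XEN array from the ES array in log2(signal + 10.5 units) for the 11 tested member probe sets, with the XEN mean (black tick) and limma's 95% interval (black line). Ccn2 lies from 3.38 to 4.76 above ES, and the symbols of Jun and Egr1 lie on both sides of 0.

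IM8A1-II and IM8A1-I set the same line in RPMI with serum on plastic against 70% EMFI-CM on gelatin. There was 1 array each and no test. Of 10 member probe sets that reached the limit on either array, 3 lay past 2-fold higher in IM8A1-II (Ccn2, Ccn1 and Ier3) and 0 lower, when 3.70% and 2.59% of 7870 probe sets did so. This split rests on the scaling, since with median scaling 2 were past 2-fold higher (Ccn2 and Ccn1) and 2 lower (Dusp1 and Ier2), with Ier3 just inside it. In that setting 3.16% of all measured probe sets were higher and 3.40% lower. Dusp1 also passed 2-fold downward under the smaller offset (5th percentile) and when dim values were raised to the limit. Ccn2 read 7059 units in IM8A1-II, against 2707 in IM8A1-I, a ratio of 2.61. Ccn1 read 645 units in IM8A1-II, against 289 in IM8A1-I, a ratio of 2.23. Ier3 read 432.5 units in IM8A1-II, against 198 in IM8A1-I, a ratio of 2.19.

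Dusp1 and Ier2 went the other way, just inside 2-fold on the log2(signal + 10.5) scale, at -0.97 and -0.94. Dusp1 read 178 units in IM8A1-II, against 359.7 in IM8A1-I, and Ier2 read 406 in IM8A1-II, against 787 in IM8A1-I. Egr1 (-0.61) and Fos (-0.50) were also lower in IM8A1-II, while Jun (0.42), Fosb (0.25) and the brighter Junb probe set (-0.03) lay nearer to level. IM8A1-II was thus the highest of the 4 arrays for 5 of the 11 tested probe sets (Fosb, Jun, Ier3, Ccn1 and Ccn2), when this held for 21.0% of all tested probe sets.

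XEN1-3 and IM8A1-I set different lines, strains and passages against each other in the same labelled medium. Of 10 measured member probe sets, 4 lay past 2-fold lower in XEN1-3 (Dusp1, Egr1, Jun and Ier2) and 0 higher, when 4.68% and 4.73% of 7922 probe sets did so. Dusp1 was 6.66-fold lower, with 54.0 units in XEN1-3, against 359.7 in IM8A1-I. Egr1 was 5.38-fold lower, with 37.0 units in XEN1-3, against 199 in IM8A1-I. Ier2 was 4.00-fold lower, with 197 units in XEN1-3, against 787 in IM8A1-I. Jun was under the limit in XEN1-3 and so at least 2.55-fold lower than in IM8A1-I.

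Fos was 2.11-fold lower in signal in XEN1-3 than in IM8A1-I, just inside 2-fold on the log2 scale with the offset (-0.95). Ccn2 (0.72) and Ier3 (0.60) were higher in XEN1-3 than in IM8A1-I, and Ccn1 was lower (-0.75), all within 2-fold. XEN1-3 was the lowest array, with the other 3 at or above the limit, for 5 of the 11 tested probe sets (Egr1, Jun, the brighter Junb, Dusp1 and Ier2), when this held for 15.7% of all. For 2 of them, Egr1 and Jun, both IM8A1 cultures lay above ES and XEN1-3 below it, a pattern held by 5.35% of all tested probe sets. IM8A1-I is shared by this comparison and the one between the IM8A1 cultures. The median difference of XEN1-3 from IM8A1-I over the 10 probe sets was -0.85, against 0.04 over all measured probe sets. These values rest on the array whose run record carries the fluid message.

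**Figure D3:**
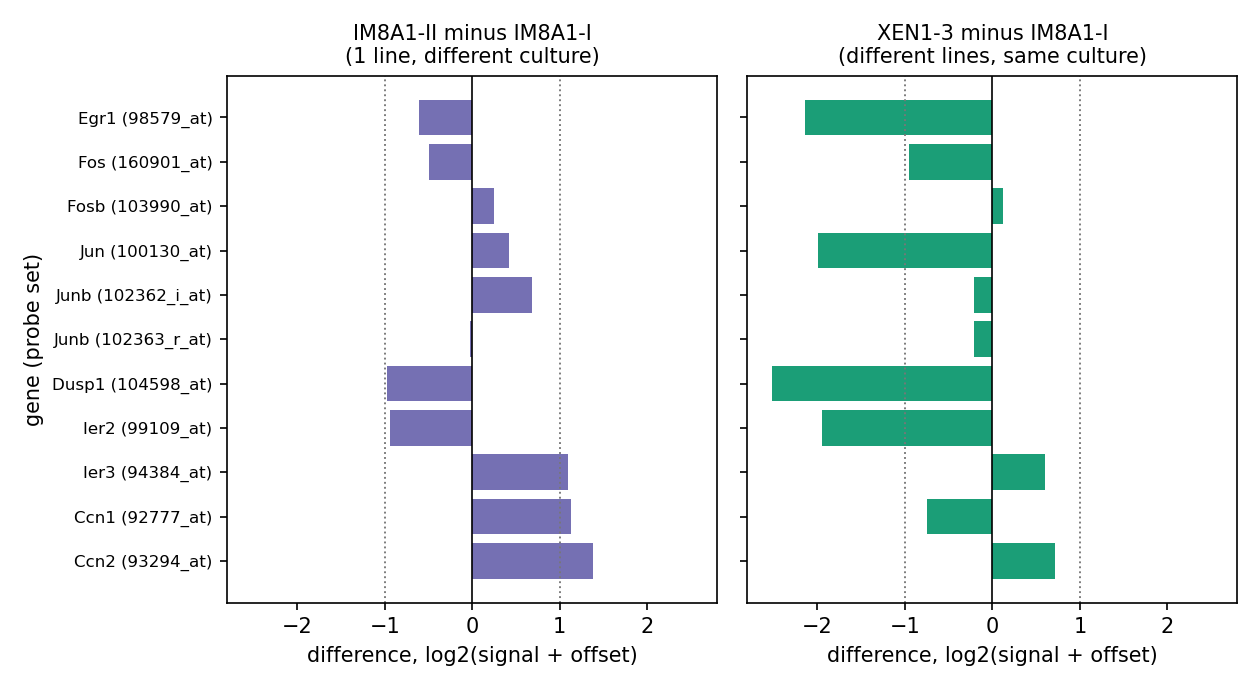
Differences in log2(signal + 10.5 units) of the 11 tested member probe sets between XEN arrays, IM8A1-II minus IM8A1-I on the left and XEN1-3 minus IM8A1-I on the right, 1 array each. Dotted lines mark 2-fold. Ccn2, Ccn1 and Ier3 pass it upward on the left, and Dusp1, Egr1, Jun and Ier2 pass it downward on the right. The dimmer Junb probe set was under the limit on all 3 XEN arrays and was not counted.

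Genes known as further targets of serum response factor and YAP at the cytoskeleton and in adhesion were read beside the CCN pair. Of 16 tested genes of that list 4 rose, 0 fell and 12 did not pass in XEN against ES, with a median log2 difference of 0.17, against 0.03 over all 6345 genes tested, of which 5.74% rose and 5.23% fell. Ankrd1, a muscle and stress-responsive ankyrin protein and a common YAP readout, stood at 450.5, 1152 and 389 units in XEN1-3, IM8A1-II and IM8A1-I, against 9.20 units in ES. With ES under the limit, each XEN culture was at least 14.3-fold higher (limma adjusted p = 0.0116). The others were Tgfb1i1 (Hic-5, a focal adhesion adaptor, log2 difference 2.16 ± 0.36, adjusted p = 0.0229), Amotl2 (an angiomotin that binds YAP, 1.57 ± 0.28, adjusted p = 0.0259) and the actin gene Actb (1.37 ± 0.31, adjusted p = 0.0497). Ankrd1 and Tgfb1i1 no longer passed once values were raised to the limit (adjusted p of 0.0854 and 0.0728) and Tgfb1i1 without IM8A1-I (0.0648). Amotl2 was lost without IM8A1-I (0.0685) or IM8A1-II (0.0661), and Actb in 9 of 12 alternatives, while its other probe set differed by 0.67 (adjusted p = 0.245). The count of genes higher was 1 without IM8A1-I, when 190 of 8480 tested probe sets were higher, and 2 without IM8A1-II, when 234 of 8436 were. It was 5 without XEN1-3 (these 4 genes and Myl9), when 9.47% of all tested probe sets were higher. Tagln, which encodes the smooth muscle protein transgelin, lay the other way, with 36.1, 213.5 and 37.7 units in XEN1-3, IM8A1-II and IM8A1-I, against 538 units in ES (-2.79 ± 0.92, adjusted p = 0.110). It passed without IM8A1-II (adjusted p = 0.0140) and with each XEN line counted once (0.0412), as Acta2, smooth muscle actin, did without XEN1-3 (-2.38, adjusted p = 0.0407). Ccn4, a CCN family relative named after its values were seen, passed only with dim values raised to the limit (-0.17 in log2, adjusted p = 0.0404). Myl9, a myosin light chain, and Lats2, a kinase that phosphorylates YAP, lay above ES by 1.36 and 1.49 in log2 and did not pass (adjusted p = 0.0517 and 0.0811). Myl9 passed without XEN1-3 (1.43) and with the smaller offset (1.56).

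Between the IM8A1 cultures 3 of 15 measured genes of that list were past 2-fold higher in IM8A1-II and 0 lower, when 3.56% and 2.69% of 5876 genes were. Ankrd1 read 1152 units in IM8A1-II, against 389 in IM8A1-I. Tagln, also in the fibroblast list, read 213.5 units in IM8A1-II, against 37.7 in IM8A1-I. Acta2 read 40.6 units in IM8A1-II, against 7.30 in IM8A1-I, which was under the limit, so its ratio is at least 1.49. With values raised to the limit the genes past 2-fold higher were Ankrd1, Tagln and Lats2 (420 units in IM8A1-II, against 206 in IM8A1-I), when 3.30% of all genes were higher and 2.31% lower. The summed fibroblast markers were 857 units in IM8A1-II, against 738.5 in IM8A1-I, but 644 units in IM8A1-II and 701 in IM8A1-I without Tagln. Twist1 read 87.5 units in IM8A1-II, against 156 in IM8A1-I, Col1a1 95.5 against 68.0 and Col1a2 353 against 352. In XEN1-3 against IM8A1-I, Acta2 was the 1 gene of 14 past 2-fold (163 units in XEN1-3, at least 6.00-fold higher), when 4.51% of 5901 genes were higher and 4.46% lower.

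Factors known to drive these genes were read in the same way. Of 11 tested genes of the serum response factor, ETS, CREB and YAP machinery 0 rose and 0 fell by limma, under every alternative too. These counts use the brightest probe set of each gene, on which Tead4 alone had an unadjusted p under 0.05. Tead4, a DNA-binding partner of YAP, read 264, 172 and 226 units in XEN1-3, IM8A1-II and IM8A1-I, against 87.3 units in ES, on its brightest probe set (adjusted p = 0.0711). Another Tead4 probe set (102867_at) passed with a log2 difference of 1.59 ± 0.34 (adjusted p = 0.0417). Yap1 read 922.5, 587 and 421 units in XEN1-3, IM8A1-II and IM8A1-I, against 714 in ES. Wwtr1, which encodes the YAP relative TAZ, was the 1 gene of 10 past 2-fold between the IM8A1 cultures, at 119 units in IM8A1-II, against 266 in IM8A1-I. Over all genes 2.69% were lower in IM8A1-II. The other Wwtr1 probe set (103100_at) lay inside 2-fold, at 111 units in IM8A1-II, against 187 in IM8A1-I. Crebbp, a coactivator bound by CREB, was just inside 2-fold, with 68.6 units in IM8A1-II, against 143 in IM8A1-I, and past it with values raised to the limit. Tead2, a relative of Tead4, read 138 units in IM8A1-II, against 231 in IM8A1-I. Creb1 and Mrtfa, which encode CREB and a coactivator of serum response factor, lay above ES by 0.58 and 0.44 in log2 without passing. Another Creb1 probe set (102671_at), with ES under the limit, differed by 1.04 (limma unadjusted p = 0.0140, adjusted p = 0.0821). Elk4, an ETS partner, was dim, with 16.1 to 32.3 units in XEN, against 9.10 in ES. In XEN1-3 against IM8A1-I 2 of 11 genes, Yap1 and Tead1, were past 2-fold higher and 0 lower. Over all genes 4.51% were higher and 4.46% lower. Tead1, a relative of Tead4 named after its values were seen, read 35.6 units in XEN1-3, against 10.3 in IM8A1-I. The latter is under the limit, so its ratio is at least 1.31. With values raised to the limit Yap1 was the 1 gene of 11 past 2-fold, when 4.25% of all genes were higher and 4.37% lower.

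Of 17 tested further immediate early transcription regulators 2 rose, 1 fell and 14 did not pass, with a median of 0.58 in log2. Over all tested genes 5.74% rose and 5.23% fell. Cited2, a CBP/p300-binding coregulator, stood at 2812.5, 3864 and 3805 units in XEN1-3, IM8A1-II and IM8A1-I, against 452 units in ES (2.91 ± 0.29, adjusted p = 0.00702). Btg1, an antiproliferative factor, rose by 1.78 ± 0.37 (adjusted p = 0.0393) but was lost in 5 of 12 alternatives. Klf2, a Krüppel-like factor, fell to between 6.30 and 7.20 units in XEN, against 156.5 units in ES, at least 5.75-fold lower (adjusted p = 0.00822). Without XEN1-3, 5 rose and 2 fell, when 9.47% of all tested probe sets rose and 8.62% fell in that fit. Without IM8A1-I or without IM8A1-II 1 gene of the list rose, when 190 of 8480 and 234 of 8436 tested probe sets did so. Nab1, a corepressor of Egr proteins, read 200.2, 509 and 320.0 units in XEN1-3, IM8A1-II and IM8A1-I, against 68.2 units in ES (2.07 ± 0.51, adjusted p = 0.0590). It passed without XEN1-3, where the log2 difference was 2.40. Klf4 and Myc, both transcription factors, did not pass and were lower in IM8A1-II than in IM8A1-I by 0.77 and 0.71 in log2.

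Atf3, a stress-induced bZIP factor that pairs with Jun proteins, had a wide spread, with 288, 1035 and 1551 units in XEN1-3, IM8A1-II and IM8A1-I, against 51.2 units in ES. Its brightest probe set did not pass (3.67 ± 0.88, adjusted p = 0.0558), and another (104156_r_at) did (2.81 ± 0.42, adjusted p = 0.0172). Among 9 tested AP-1 family members and partners, Atf3 included, 1 rose (Mafk, a small Maf protein, by 1.40 ± 0.31, adjusted p = 0.0464), 0 fell and 8 did not pass. Over all tested genes 5.74% rose and 5.23% fell. Mafk was lost in 9 of 12 alternatives. Without XEN1-3, 3 genes of the list were higher (Atf3, Atf4 and Mafk), when 9.47% of all tested probe sets were. Atf4, a bZIP factor of the stress response, read 2084, 1773 and 3390 units in XEN1-3, IM8A1-II and IM8A1-I, against 776 units in ES (adjusted p = 0.0656 over all arrays). The bZIP factors Atf2 and Mafg differed from ES by -0.75 and 0.65 in log2 without passing, and Maff was dim, with 25.1 to 38.0 units in XEN, against 16.3 in ES. Atf3 and Jund, 2 of 9 genes of this list, were past 2-fold lower in XEN1-3 than in IM8A1-I, when 4.46% of all genes were. For Atf3 this held on the brightest probe set (-2.39 in log2), while 104156_r_at lay just inside 2-fold (-0.96). Jund, named after its values were seen, read 1715 units in XEN1-3, against 4347 in IM8A1-I. Of the 16 measured transcription regulators 2 were past 2-fold lower in XEN1-3 than in IM8A1-I, Klf10 and, by the same reading, Atf3. Klf10, at 104 units in XEN1-3 and 269 in IM8A1-I, was named after its values were seen. With values raised to the limit Myc was past 2-fold lower as well (48.7 units in XEN1-3, against 103 in IM8A1-I), when 4.37% of all genes were. In the same list 1 gene, Zfp36l1, which encodes an mRNA decay protein, was past 2-fold higher in IM8A1-II than in IM8A1-I. Over all genes 3.56% were.

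Of 18 tested signalling and secreted products 0 rose, 2 fell and 16 did not pass in XEN against ES, with a median of -0.0039 in log2. Over all tested genes 5.74% rose and 5.23% fell. The kinase gene Pim1 fell to 351.5, 285 and 345 units in XEN1-3, IM8A1-II and IM8A1-I, against 1308.5 units in ES (adjusted p = 0.0145), and the survival factor Mcl1 to 311, 332 and 336.5 units, against 957 units in ES (adjusted p = 0.0235). A dimmer Pim1 probe set also lay lower in XEN (log2 difference -1.71) and did not pass (adjusted p = 0.0519). Mcl1 had an adjusted p of 0.0744 without IM8A1-I and of 0.0648 without IM8A1-II. The list had 2 genes higher without XEN1-3 (Hbegf and Phlda1), when 9.47% of all tested probe sets were. Hbegf, an EGF receptor ligand, read 306, 492 and 315.5 units in XEN1-3, IM8A1-II and IM8A1-I, against 119 units in ES (adjusted p = 0.0536). Tnfaip3, an inhibitor of NF-kappaB signalling, read 71.5, 19.4 and 41.6 units in XEN1-3, IM8A1-II and IM8A1-I, against 2.50 units in ES, under the limit (adjusted p = 0.0932). The kinase gene Plk2 lay above ES by 0.99 in log2 and did not pass (adjusted p = 0.249). In XEN1-3 against IM8A1-I, 4 of 18 were past 2-fold lower, namely Dusp6, Gadd45a, Nfkbia and Phlda1, and 1, Socs3, was higher. Over all genes 4.46% were lower and 4.51% higher. Phlda1 read 127 units in XEN1-3, against 494 in IM8A1-I, and Gadd45a read 111.5 in XEN1-3, against 380.3 in IM8A1-I. Nfkbia (56.4 units in XEN1-3, 158 in IM8A1-I) and Socs3 (375 units in XEN1-3, 159.6 in IM8A1-I) were named after their values were seen. A list for the ERK pathway had 4 tested genes, the negative feedback genes Spry4, Spred2 and Dusp6 and the ETS factor gene Etv4. Of these 0 rose and 0 fell by limma, and 0 had an unadjusted p under 0.05.

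**Figure D4:**
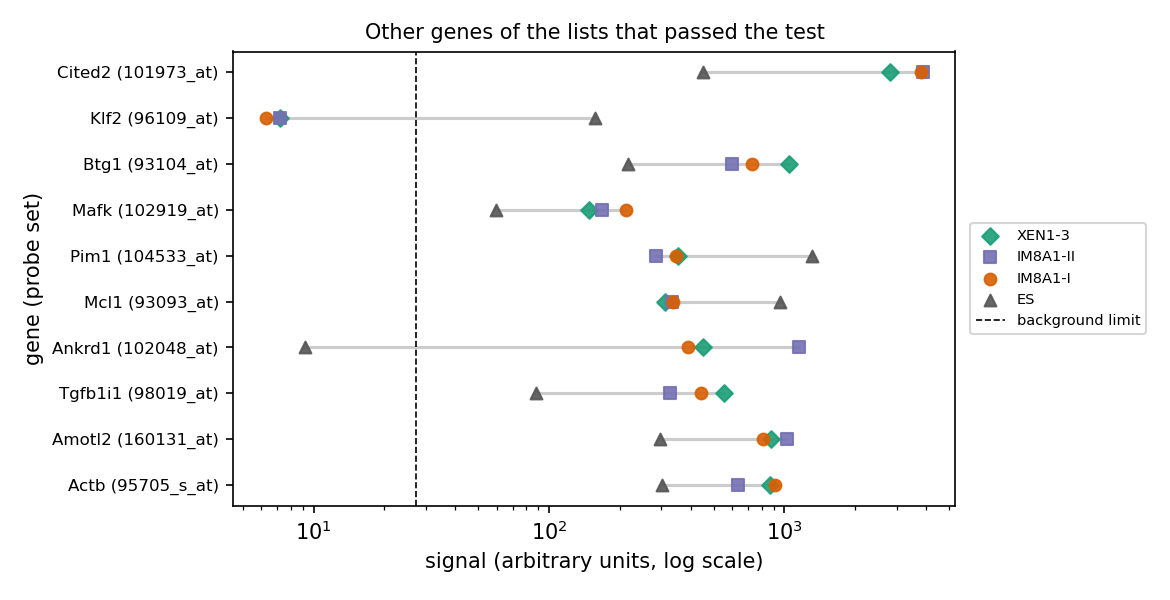
Signal of the 10 list genes named by rule that passed the test in XEN against ES, in arbitrary units on a log axis, by array. The dashed line is the background limit. Cited2, Btg1, Mafk, Ankrd1, Tgfb1i1, Amotl2 and Actb lie above ES on all 3 XEN arrays, and Klf2, Pim1 and Mcl1 lie below it.

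The genes whose pattern over the 4 arrays lay closest to a member were found by the distance between log2 values centred on their mean, among 4672 genes that reached 84.7 units on at least 1 array. For Ccn1 they were Podxl (distance 0.37), Krt18 (0.52) and Flt1 (0.55). For Ccn2 they were Myh7 (0.65), Smarca2 (0.73) and Cited1 (0.74), and no gene lay within 0.5. For Egr1 they were Ndn (0.34), Bmyc (0.39) and Hus1 (0.44), and for Jun they were Spg21 (0.33), Tob1 (0.41) and Ten1 (0.42). For Fos they were AU040320 (0.064), Snapc2 (0.13) and Rrbp1 (0.18), and for the brighter Junb probe set Ube2e1 (0.012), Ywhaq (0.039) and Dnaja1 (0.051). These were among 140 and 1180 genes within a distance of 0.5. With 4 arrays such nearness is a description of these cultures.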

How the data were processed

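Per the file headers, RNA was hybridised to Affymetrix MG_U74Av2 arrays. The deposited table holds a linear intensity per probe set for each array; the summarising software was not given in the sources used here. Trimmed means (2%) of the authors' values were nearly equal (150.088 to 150.095), and rescaling changed them by a factor of 1.000. The other deposited fields read, per the file headers, were chip lot, scan day and fluidics messages. To each value 10.5 units (25th percentile) were added and log2 taken, which understates changes of dim genes. Probe sets reaching 27.2 units (40th percentile) on at least 1 array were tested; 66 controls were left out. XEN was compared with ES in limma 3.58.1 (R 4.3.3; lmFit, eBayes, variance trend on, residual degrees of freedom 2), two-sided, with Benjamini-Hochberg adjustment over 8587 probe sets at 0.05, and checked on simulated data. The 12 alternatives changed the scaling (median, quantile), the offset (5th or 50th percentile), dim values (raised to 27.2 units), the filter (none, or 84.7 units), the variance trend, the weight of each line, or left out 1 XEN array. Comparisons within XEN had 1 array a side and no test. The number of arrays limits the precision.

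Symbols came from GEO's platform annotation. All 13 member probe sets matched the RefSeq table of GRCm38.p6 by gene ID, with 0 symbols changed in the whole annotation. The brightest probe set by mean log2 represented a gene. Named were all members, up to 5 genes per list with the smallest p, up to 4 with the largest difference between the IM8A1 cultures, and the 3 nearest patterns of Egr1, Fos, Jun, Junb, Ccn1 and Ccn2. The members, 6 gene lists and 3 marker lists were chosen with earlier results of these data known. Figures were drawn with matplotlib 3.10.9.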

Additional observations from a re-analysis of the deposited data

Results flagged for a closer look

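Egr1 and Jun lay on opposite sides of ES in the 2 XEN lines. Egr1 (98579_at) differed from ES by -1.31 in XEN1-3, by 0.22 in IM8A1-II and by 0.83 in IM8A1-I, in log2. Jun (100130_at) differed from ES by -1.18 in XEN1-3, by 1.23 in IM8A1-II and by 0.81 in IM8A1-I. Its XEN1-3 level (9.50 units) was under the background limit and its ES level (34.9 units) close above it, so Jun was at least 1.28-fold lower in XEN1-3 than in ES and the value of -1.18 has no firm size. XEN1-3 is a single array, the difference between the lines was not tested, and 5.35% of all tested probe sets showed the same pattern of signs.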

How the results depend on the processing

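Of the 12 alternatives, values raised to the background limit moved the calls most among those that kept all arrays. In that setting 241 probe sets were higher in XEN (479 otherwise) and 537 lower (433 otherwise). Among the members 0 were higher and 1 lower (Junb 102362_i_at). Its XEN values are made equal by that setting, so its p does not measure their spread. Leaving out 1 XEN culture gave 190 to 797 probe sets higher and 179 to 725 lower, and 1 to 2 members higher and 0 to 1 lower. The counts were 190 and 179 when IM8A1-I was left out, 234 and 209 when IM8A1-II was, and 797 and 725 when XEN1-3 was. Over all probe sets 518 were higher and 367 lower with an offset of the 5th percentile, against 394 and 531 with the 50th, and 428 and 508 with median scaling. Signs that turned belonged to members that did not pass: Jun was -0.080 in log2 with each XEN line counted once. Leaving out 1 XEN culture gave -0.18 to 1.02 for Jun, -0.063 to 0.48 for Ier3, -0.55 to 0.53 for Egr1 and -0.87 to 0.11 for Ier2. The member counts past 2-fold within XEN were 2 to 4 for IM8A1-II, with 2 to 3 higher and 0 to 2 lower, and 3 to 5 for XEN1-3, with 0 higher under each alternative run for it. Over all measured probe sets the shares for IM8A1-II ran from 1.37% to 5.03% higher and from 0.813% to 3.76% lower. For XEN1-3 they ran from 1.58% to 6.29% higher and from 2.23% to 6.11% lower. The alternatives for list genes were chosen after seeing the data. The cause of these shifts was not tested. No paired analysis was possible because there was 1 ES array, so that XEN and ES share at most 1 replicate number, which here follows accession order and pairs nothing.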
